A study of Mus musculus with 10 samples.

Results

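Glycolysis splits glucose to pyruvate in the cytosol, and lactate dehydrogenase with the monocarboxylate transporters disposes of pyruvate as lactate. Pyruvate that enters the mitochondrion is converted by pyruvate dehydrogenase to acetyl-CoA, which citrate synthase feeds into the tricarboxylic acid (TCA) cycle. Activated conventional T cells are known for high glycolytic flux, whereas regulatory T cells (Treg) are known to rely more on mitochondrial oxidation. The genes described here are the enzymes, transporters and regulators of these 2 routes, 41 symbols grouped by function. They were chosen with earlier results of these data known. A gene was taken where a probe set carried that single symbol, and the probe set with the highest mean stood for it. This gave 39 genes of 18194 with a probe set, 22 for glycolysis and 17 for the TCA cycle. Gpi1 (glucose-6-phosphate isomerase) and Eno1 (enolase 1) had no probe set under this rule and were not analysed here. All 39 passed the filter on low values, which kept 11319 genes.

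The data are 10 Mouse Genome 430 2.0 arrays (Affymetrix), 2 for each of 5 groups of sorted mouse splenic CD4+ T cells. All cells came from mice carrying DEREG, a transgene that expresses a diphtheria toxin receptor and GFP under Foxp3 control, so GFP+ marks cells with an active Foxp3 locus. The study asked how Foxp3 itself and the epigenetic state of Treg each relate to expression, and all 5 groups were activated through CD3 and CD28, infected with the retrovirus pGCSamIN and sorted on its NGFR marker. The Treg group was DEREG GFP+ cells with empty vector, and the Tconv mock group was DEREG GFP- cells (conventional T cells) with empty vector. Scurfy mock cells were GFP+ cells of mice labelled D_S, read here as DEREG/Scurfy, with empty vector. Scurfy mice carry a Foxp3 mutation that leaves no working protein. Scurfy Foxp3-labelled cells were GFP+ cells of the same source given the Foxp3 vector, and Tconv Foxp3-labelled cells were DEREG GFP- cells given it. The strain field gives DEREG on Balb/c for every array, and no label gives an age. Nothing in the labels says that the 2 arrays of a group came from separate mice or cultures, so the p-values measure only the spread between arrays.

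The labelled cell type was checked first. The summed intensity of T cell markers was 14810.0 to 22760.0 over the 10 arrays, and the Treg markers Foxp3, Ikzf2 and Ikzf4 summed to 6044 to 10500.0 on GFP+ arrays against 523 to 785 on GFP- arrays. The Foxp3 probe set did not follow the vector label: it read 1188 and 1114 in scurfy mock against 948 and 691 in scurfy Foxp3-labelled, and 53.9 and 35.9 in Tconv mock against 18 and 18.9 in Tconv Foxp3-labelled. Whether the vector's transcript holds the sequence of this probe set is not given in the sources used here, so the probe set does not check the label. Array medians ran from 18.8 to 36.5 in intensity. Array 1 of scurfy Foxp3-labelled and array 2 of scurfy mock correlated better with each other (r = 0.974) than with their own group partners (r = 0.953 and 0.921), so calls that change without them are given. B cell marker sums were 76.1 to 1756 on GFP+ and 119 to 502 on GFP- arrays, and myeloid sums 104 to 419 and 77.8 to 208. CD8 T cell, NK cell and red blood cell sums reached at most 109, 203 and 71.1. The part of these cells in the results was not tested.

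The 6 GFP+ arrays were compared first with the 4 GFP- arrays, a contrast that uses every array. Its GFP+ side holds both scurfy groups, from D_S mice, whereas every GFP- array came from DEREG mice without that label. Mouse source and GFP state therefore cannot be fully told apart here, and both sides mix Foxp3-labelled and mock groups. Treg against Tconv mock, given below, keeps the source and the empty vector the same. Of the 17 TCA cycle genes, 16 had a lower mean in GFP+ cells, with Mdh1 the exception, while the median gene of the whole table was 0.08 higher on the log2 scale. Fh1, the fumarate hydratase, fell and was the 1 TCA cycle gene called. Among 22 glycolysis genes 12 were lower and 10 higher, and the called genes moved in opposite directions: Eno2, the gamma enolase, rose and Slc16a1, the lactate and pyruvate transporter MCT1, fell. For Fh1 and Slc16a1 the GFP- groups were unlike, with Tconv Foxp3-labelled above Tconv mock, as given below. The core enzymes of glycolysis, from Aldoa and Gapdh to Pkm, were not called.

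**Figure D1:**
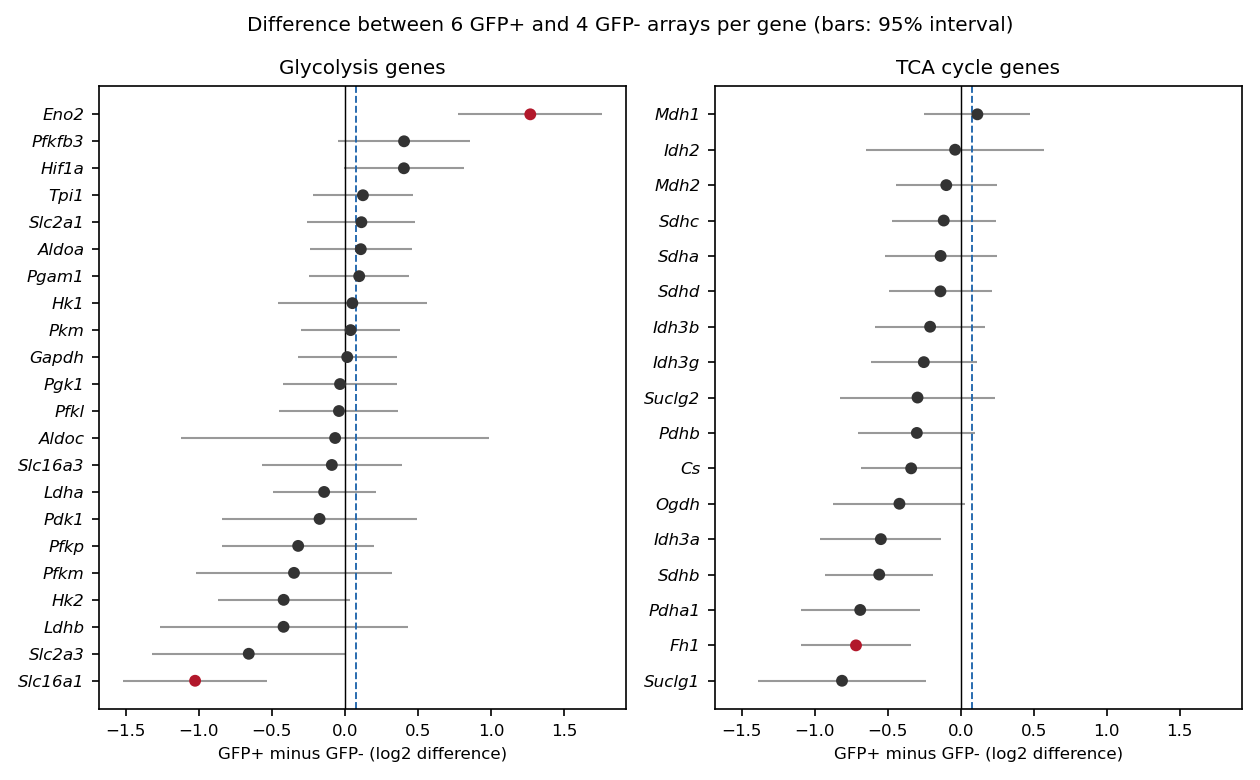
Difference in log2(intensity + 16) between the 3 GFP+ and the 2 GFP- groups for each of the 39 genes, with bars for the 95% interval of the limma fit, red for genes called at an adjusted p under 0.05 and a blue dashed line at the median of all 11319 genes. The TCA cycle points lie left of 0 except Mdh1 at 0.11, while Eno2 at 1.27 and Slc16a1 at -1.03 lie farthest out among the glycolysis genes.

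The fit called a gene at a Benjamini-Hochberg adjusted p under 0.05 with limma on log2(intensity + 16), a scale that understates changes of dim genes. It called 4.65% of all genes in GFP+ against GFP-, so the 3 called among 39 genes described here are near that background. By list, 1 of 17 TCA cycle genes and 2 of 22 glycolysis genes were called. At an unadjusted p under 0.05, 5 TCA cycle genes passed, all lower, and 2 glycolysis genes. Of all genes 21.7% did, and 7.69% in the lower direction. The median difference was -0.30 for the TCA cycle and -0.04 for glycolysis. Across all genes 42.3% had a difference below 0.

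Scaling moved the level of all differences, and the TCA cycle median stayed below the glycolysis median under each. After quantile normalization the median was -0.29 for the TCA cycle, -0.02 for glycolysis and -0.03 for all genes. With arrays set to a common 75th percentile these were -0.45, -0.20 and -0.06. TCA cycle genes with a difference below 0 then numbered 16 and 17 of 17, and glycolysis genes 11 and 19 of 22, so the split of the glycolysis genes depends on the scaling.

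The lists can also be read within each array. The mean of the 17 TCA cycle genes lay 2.29 to 2.53 log2 units above the array's median gene on GFP+ arrays and 2.83 to 2.90 above it on GFP- arrays, with no overlap. For the 22 glycolysis genes the same distance was 2.59 to 3.10 on GFP+ and 2.93 to 3.09 on GFP- arrays, which overlap. Setting one list against the other removes the array's scale: the glycolysis mean minus the TCA cycle mean was 0.30 to 0.76 on GFP+ arrays and 0.10 to 0.26 on GFP- arrays. Every GFP+ array was therefore above every GFP- array in this difference, by the least margin between Treg array 2 at 0.30 and Tconv mock array 1 at 0.26. These distances describe the 10 arrays and carry no test. In RNA from a bulk population, fewer cells of a type and less RNA per cell cannot be told apart.

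**Figure D2:**
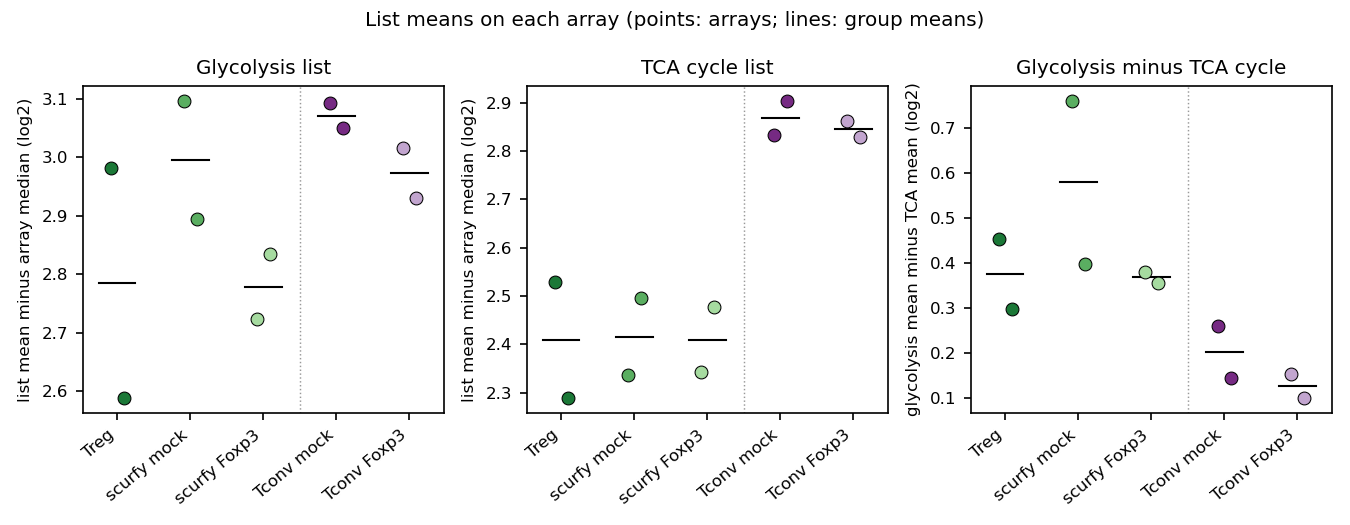
Mean log2(intensity + 16) of the 22 glycolysis and the 17 TCA cycle genes minus the median gene of the same array, 1 point per array and 2 per group. The TCA cycle points of the 6 GFP+ arrays reach at most 2.53 and those of the 4 GFP- arrays start at 2.83, while the glycolysis points overlap.

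Pyruvate dehydrogenase opens the mitochondrial route. Pdha1, which encodes the alpha subunit of its E1 component, had intensities of 730.2 and 763 in Treg, 618 and 621 in scurfy mock, 770.2 and 505 in scurfy Foxp3-labelled, 983 and 1123 in Tconv mock and 1000.4 and 1208 in Tconv Foxp3-labelled. All 6 GFP+ arrays were below all 4 GFP- arrays, and Foxp3-labelled and mock arrays of the same source lay in the same range. The difference of -0.69 (SE 0.18, adjusted p = 0.067) missed the threshold but passed it after quantile normalization (adjusted p = 0.024) and at a common 75th percentile (adjusted p = 0.018). A second, dimmer Pdha1 probe set gave -0.0039, so the probe sets of this gene disagree. Pdhb, the beta subunit, spanned 1001 to 1802 with overlapping groups and a difference of -0.30 (SE 0.18).

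Citrate synthase, which condenses acetyl-CoA with oxaloacetate, was read by Cs at 1580.1 and 1627 in Treg, 2180.3 and 2229 in scurfy mock, 1886 and 1750.2 in scurfy Foxp3-labelled, 2411 and 2350.2 in Tconv mock and 2203 and 2468 in Tconv Foxp3-labelled. The Treg arrays were the lowest of the 10, and the difference between GFP+ and GFP- was -0.34 (SE 0.15, adjusted p = 0.23). Of the subunits of NAD-dependent isocitrate dehydrogenase, Idh3a (alpha) gave 1168 and 1158 in Treg, 921 and 1282 in scurfy mock, 1397 and 959.7 in scurfy Foxp3-labelled, 1540.0 and 1457 in Tconv mock and 1824 and 1883 in Tconv Foxp3-labelled. Its GFP+ arrays stayed below its GFP- arrays, with a difference of -0.55 (SE 0.18, adjusted p = 0.13) that was called only at a common 75th percentile (adjusted p = 0.048) among the scalings. Idh3b and Idh3g, the beta and gamma subunits, overlapped between GFP+ and GFP- and differed by -0.21 and -0.25. Idh2, the NADP-dependent mitochondrial enzyme, spanned 151 to 383, and its probe sets disagreed, at -0.04 for the one chosen and -0.97 for the other.

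The middle of the cycle gave lower mean values over the GFP+ groups as well, without a call. Ogdh, the E1 subunit of 2-oxoglutarate dehydrogenase, was at 162 to 290.3 on GFP+ and 297 to 332 on GFP- arrays, which do not overlap, and differed by -0.42 (SE 0.20, adjusted p = 0.26). Suclg1, the alpha subunit of succinyl-CoA ligase, had intensities of 623 and 779 in Treg, 628 and 1214 in scurfy mock, 1047 and 706 in scurfy Foxp3-labelled, 1083 and 1647 in Tconv mock and 1786 and 1306 in Tconv Foxp3-labelled. Array 2 of scurfy mock and array 1 of scurfy Foxp3-labelled were the highest of its GFP+ arrays, and the first of these lay above Tconv mock array 1. Its difference was -0.81 (SE 0.25, adjusted p = 0.11), and without those 2 arrays it was -1.06 (adjusted p = 0.041). Suclg2, the GDP-forming beta subunit, was dim at 57.8 to 217 and differed by -0.30. For Suclg2, Treg was not below Tconv mock, at 0.05 by the chosen probe set and 0.46 by the other.

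Succinate dehydrogenase joins the cycle to the respiratory chain. Sdhb, its iron-sulphur subunit, was measured at 1039 and 1007 in Treg, 1295 and 1349.8 in scurfy mock, 1344 and 1021 in scurfy Foxp3-labelled, 1583 and 1437 in Tconv mock and 1866 and 2082 in Tconv Foxp3-labelled. The 4 GFP- arrays were the highest, Tconv Foxp3-labelled above Tconv mock, and the GFP+ arrays did not reach them. The difference of -0.56 (SE 0.16, adjusted p = 0.091) was not called on the deposited scale, but was after quantile normalization (adjusted p = 0.047) and at a common 75th percentile (adjusted p = 0.031). The other subunits, the flavoprotein Sdha and the membrane anchors Sdhc and Sdhd, overlapped and differed by -0.14, -0.12 and -0.14.

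Fh1 converts fumarate to malate. Its intensities were 780.1 and 677 in Treg, 549.5 and 639 in scurfy mock, 715 and 545 in scurfy Foxp3-labelled, 859.8 and 866 in Tconv mock and 1236 and 1429.9 in Tconv Foxp3-labelled. No GFP+ array reached the lowest GFP- array, and the Tconv Foxp3-labelled arrays were the highest. Tconv Foxp3-labelled exceeded Tconv mock by 0.61 on the log2 scale (SE 0.26). Set against Tconv mock alone, Treg gave -0.24 and scurfy mock -0.53 (SE 0.26 for each), without a call. The Fh1 difference between GFP+ and GFP- was called at -0.72 (SE 0.17, adjusted p = 0.047), and it joins unlike GFP- groups. The call sits at the threshold: it was kept without scurfy mock array 2 or scurfy Foxp3-labelled array 1 and lost when any of the other 8 arrays was left out, with an adjusted p of 0.046 to 0.19 over the 10 omissions. A pseudocount of 1 was among the other settings that ended it. The malate dehydrogenases close the cycle. Mdh2, the mitochondrial form, spanned 4832 to 6092 with a difference of -0.10, and Mdh1, the cytosolic form, spanned 4402 to 6313 with 0.11. Of the 17 TCA cycle genes, 5 (Fh1, Pdha1, Sdhb, Idh3a and Ogdh) were lower on every GFP+ array than on every GFP- array, beside 2.59% of all genes.

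**Figure D3:**
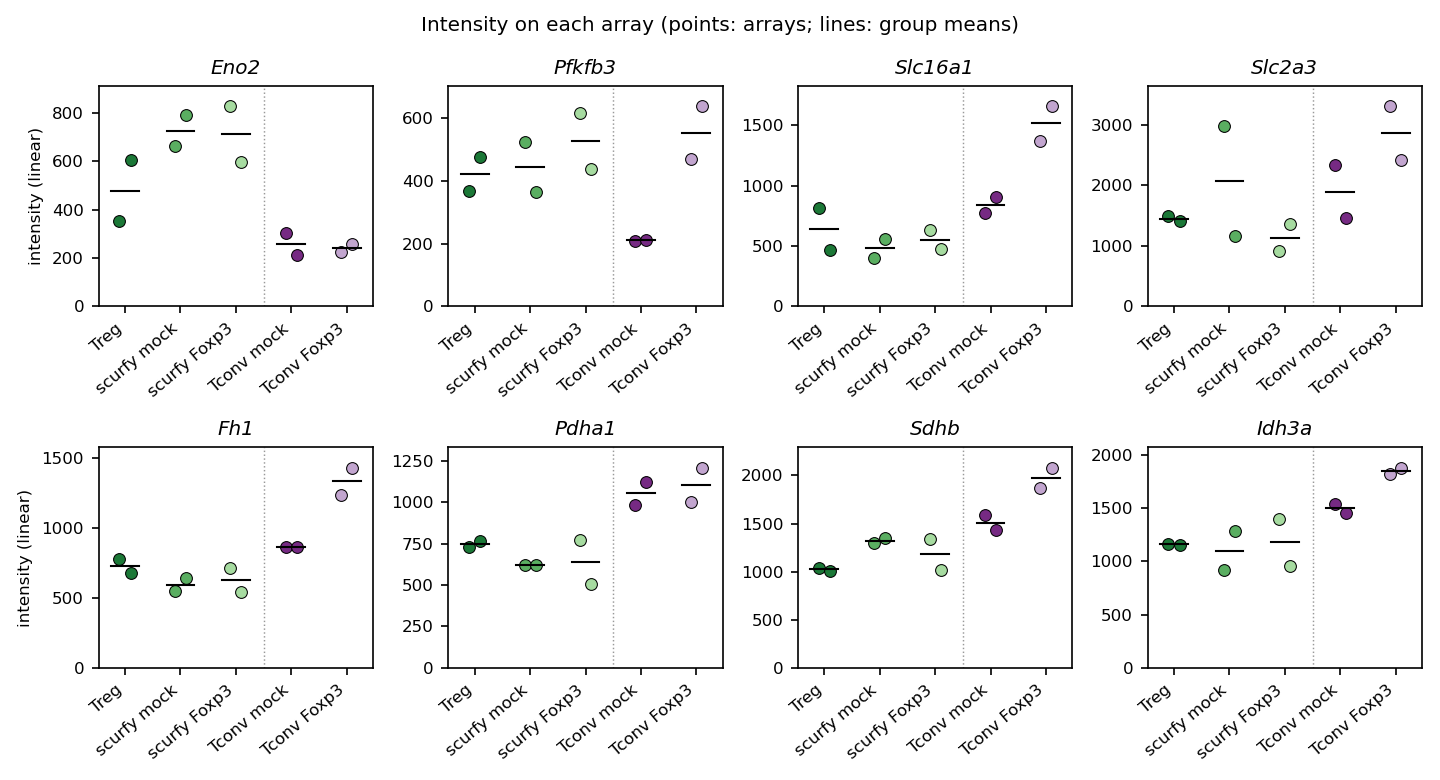
Deposited intensity on a linear axis of Eno2, Pfkfb3, Slc16a1, Slc2a3, Fh1, Pdha1, Sdhb and Idh3a, 1 point per array and 2 per group. Eno2 is at least 351 on all GFP+ arrays and at most 302 on GFP- arrays, and Fh1, Pdha1, Sdhb and Idh3a are lower on all GFP+ than on all GFP- arrays.

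In glycolysis, glucose entry came first. Slc2a1, the transporter GLUT1, spanned 2867 to 4377 over the 10 arrays with a difference of 0.11. Slc2a3, the high-affinity transporter GLUT3, gave 1489 and 1412 in Treg, 2977 and 1156 in scurfy mock, 916 and 1355 in scurfy Foxp3-labelled, 2338 and 1454 in Tconv mock and 3313 and 2426 in Tconv Foxp3-labelled. One scurfy mock array was near the highest Tconv values and the other near the lowest of all, and the difference was -0.66 (SE 0.29, adjusted p = 0.23). The hexokinases trap glucose as glucose-6-phosphate. Hk2 was measured at 686 and 644 in Treg, 816 and 971 in scurfy mock, 1219 and 699.9 in scurfy Foxp3-labelled, 1036 and 1276 in Tconv mock and 1093 and 1013 in Tconv Foxp3-labelled, lowest in Treg, with a difference of -0.42 (SE 0.20, adjusted p = 0.26). Hk1 spanned 507 to 1138 and differed by 0.05.

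Phosphofructokinase commits sugar to glycolysis. Its subunits Pfkl, Pfkm and Pfkp differed between GFP+ and GFP- by -0.04, -0.35 and -0.32, all with overlapping arrays. Pfkfb3 makes fructose-2,6-bisphosphate, which activates phosphofructokinase. It gave 369 and 475 in Treg, 524 and 364 in scurfy mock, 618 and 439 in scurfy Foxp3-labelled, 209.6 and 211 in Tconv mock and 469 and 639 in Tconv Foxp3-labelled. The Tconv mock arrays stood lowest and the Tconv Foxp3-labelled arrays were in the range of or above those of the GFP+ groups, so the GFP difference of 0.40 (SE 0.20, adjusted p = 0.28) joins unlike GFP- groups. Aldolase was read by Aldoa at 6136 to 8492 and Aldoc at 159 and 278 in Treg, 1122 and 203 in scurfy mock, 92.8 and 179.8 in scurfy Foxp3-labelled, 559 and 352 in Tconv mock and 209.5 and 90.6 in Tconv Foxp3-labelled. Aldoc varied most of all 39 genes, by 3.42 log2 units, and its 2 scurfy mock arrays were far apart, the first of them the highest of the 10. Its difference of -0.07 (SE 0.47, adjusted p = 0.95) was not called.

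Of the enzymes from triosephosphate isomerase to lactate dehydrogenase, Eno2 alone was called. Tpi1 (triosephosphate isomerase) differed by 0.12, Gapdh (glyceraldehyde-3-phosphate dehydrogenase) by 0.02, Pgk1 (phosphoglycerate kinase) by -0.03, Pgam1 (phosphoglycerate mutase) by 0.10 and Pkm (pyruvate kinase) by 0.04. Gapdh spanned 7261 to 8253, a range of 0.18 log2 units and the smallest of the 39 genes. It was read from a control probe set, because its regular probe set carried several symbols. Ldha, which favours lactate production, spanned 6954 to 9358 with -0.14, and Ldhb, the heart-type subunit, spanned 289 to 1605 with -0.42.

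Eno2 encodes the enolase best known from neurons, an isozyme of the step that makes phosphoenolpyruvate. Its intensities were 351 and 605 in Treg, 662 and 790.2 in scurfy mock, 828 and 599 in scurfy Foxp3-labelled, 302 and 211 in Tconv mock and 225 and 259 in Tconv Foxp3-labelled. All GFP+ arrays were above all GFP- arrays, and Treg array 1 came closest to them. Eno2 rose by 1.27 (SE 0.22, adjusted p = 0.016) in GFP+ cells. It was the 1 glycolysis gene whose arrays did not overlap in the higher direction, beside 3.6% of all genes. The call held in 7 of the 10 omissions of an array and was lost without Tconv mock array 2 (adjusted p = 0.077), Tconv Foxp3-labelled array 1 (adjusted p = 0.086) or Tconv Foxp3-labelled array 2 (adjusted p = 0.071).

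Slc16a1 was measured at 818 and 469 in Treg, 401 and 561 in scurfy mock, 634 and 472 in scurfy Foxp3-labelled, 776 and 902 in Tconv mock and 1373 and 1660.4 in Tconv Foxp3-labelled. The Tconv Foxp3-labelled arrays were the highest, and Treg array 1 exceeded Tconv mock array 1, so the groups overlap. Tconv Foxp3-labelled exceeded Tconv mock by 0.84 on the log2 scale (SE 0.34). Set against Tconv mock alone, Treg gave -0.42 and scurfy mock -0.80 (SE 0.34 for each), without a call. The Slc16a1 difference between GFP+ and GFP-, which joins these unlike GFP- groups, was called at -1.03 (SE 0.22, adjusted p = 0.035). This call was kept without Treg array 1 or scurfy mock array 2 and lost when any of the other 8 arrays was left out, with an adjusted p of 0.021 to 0.15 over the 10 omissions. Other settings that ended it include a pseudocount of 1, no filter on low values and the mean of both probe sets. Slc16a3, the lactate exporter MCT4, spanned 828 to 1662 and differed by -0.09. Of the regulators, Pdk1, a kinase that inhibits pyruvate dehydrogenase, spanned 100.5 to 382 with -0.17. Hif1a, a transcription factor that induces glycolytic genes, spanned 2414 to 4469 with 0.40 (SE 0.18, adjusted p = 0.24), and all 4 of its probe sets had a difference above 0. All 4 were also lower in Tconv Foxp3-labelled than in Tconv mock, by -0.29 for the one chosen, so this difference joins unlike GFP- groups. Set against Tconv mock alone, Treg gave 0.21 by the chosen probe set and 0.36, -0.04 and -0.03 by the others.

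The promoters of the 3 called genes and of Pdha1 are shown, since the first were the genes called between GFP+ and GFP- cells and Pdha1 was next in p-value. Each window runs from 250 bases before to 50 after the start, from RefSeq on GRCm38.p6: Eno2 (chr6:124769624-124769923, minus strand), Slc16a1 (chr3:104638414-104638713, plus strand), Fh1 (chr1:175625586-175625885, minus strand) and Pdha1 (chrX:160138381-160138680, minus strand). Capitals mark ACGTG on either strand, the core of the element that HIF-1 binds and part of the Myc E-box CACGTG.
Eno2: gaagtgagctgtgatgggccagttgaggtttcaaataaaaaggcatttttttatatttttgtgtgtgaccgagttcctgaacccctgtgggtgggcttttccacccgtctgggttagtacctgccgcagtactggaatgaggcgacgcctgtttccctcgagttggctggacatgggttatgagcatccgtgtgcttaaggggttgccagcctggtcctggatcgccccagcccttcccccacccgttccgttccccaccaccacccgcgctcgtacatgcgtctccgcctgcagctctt
Slc16a1: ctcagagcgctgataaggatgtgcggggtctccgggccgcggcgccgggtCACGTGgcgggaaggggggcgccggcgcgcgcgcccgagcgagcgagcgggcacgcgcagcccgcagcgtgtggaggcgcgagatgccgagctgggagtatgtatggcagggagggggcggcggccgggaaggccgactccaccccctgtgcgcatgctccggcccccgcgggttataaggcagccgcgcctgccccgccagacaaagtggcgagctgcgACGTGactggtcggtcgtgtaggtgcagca
Fh1: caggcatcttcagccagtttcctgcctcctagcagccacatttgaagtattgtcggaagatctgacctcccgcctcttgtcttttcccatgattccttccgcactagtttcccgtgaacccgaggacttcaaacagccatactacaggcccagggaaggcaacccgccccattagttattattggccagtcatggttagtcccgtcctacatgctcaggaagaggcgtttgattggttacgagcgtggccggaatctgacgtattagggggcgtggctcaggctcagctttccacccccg
Pdha1: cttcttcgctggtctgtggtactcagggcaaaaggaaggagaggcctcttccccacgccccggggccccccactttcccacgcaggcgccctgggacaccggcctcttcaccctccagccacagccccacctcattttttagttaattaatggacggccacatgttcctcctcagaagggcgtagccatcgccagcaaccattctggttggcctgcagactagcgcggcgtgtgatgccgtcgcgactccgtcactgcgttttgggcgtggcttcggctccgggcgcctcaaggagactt
Slc16a1 held ACGTG, once within a CACGTG that starts 200 bases before the gene's start and once 20 bases after it, and the other windows held none. GCGTG, the other form of the HIF-1 core, was searched on both strands and matched in Slc16a1, Fh1 and Pdha1, and the forkhead letters GTAAACA matched in none of these windows. Over all 32851 promoters of this length, 19.6% held ACGTG, 32.4% GCGTG, 7.15% CACGTG and 3.65% GTAAACA. Counted by promoter in the same way, ACGTG was in 18 of 32 entries of glycolysis genes and 10 of 20 of TCA cycle genes, and GCGTG in 16 of 32 and 14 of 20. Some genes have several entries, and no share over all genes was counted by gene, so counts by gene have no background here. By gene, ACGTG was in at least 1 entry of 15 of 21 glycolysis and 5 of 15 TCA cycle genes. GCGTG was in at least 1 entry of 13 of 21 and 11 of 15. The letters CACGTG contain ACGTG on both strands, so these counts overlap, and a match is a description of the letters only.

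Treg against Tconv mock compares the cells that differ in both Foxp3 and epigenetic state. None of the 39 genes was called by limma, where 1.09% of all genes were, and 3 glycolysis and 2 TCA cycle genes had an unadjusted p under 0.05, beside 15.4% of all genes. The medians were -0.05 for glycolysis, -0.24 for the TCA cycle and 0.19 for all genes. Below that last value lay 16 of 17 TCA cycle and 16 of 22 glycolysis genes. Fewer lay below 0, 11 of 17 TCA cycle and 15 of 22 glycolysis genes. Pfkfb3 had a difference of 0.94 (SE 0.31, adjusted p = 0.19) and Hk2 of -0.78 (SE 0.31, adjusted p = 0.28). Eno2 was at 0.83 (SE 0.34, adjusted p = 0.29) and Aldoc at -1.02 (SE 0.72, adjusted p = 0.54). Of the TCA cycle, Cs had a difference of -0.57 (SE 0.23, adjusted p = 0.30) and Suclg1 of -0.92 (SE 0.39, adjusted p = 0.30), followed by Sdhb at -0.55 and Pdha1 at -0.48. Arrays of the 2 groups did not overlap for 10 TCA cycle genes with Treg lower and 2 with Treg higher, beside 16.3% and 35.2% of all genes. The same counts for glycolysis were 8 and 5 of 22.

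Scurfy mock against Tconv mock, which shares the Tconv mock arrays with the comparison above, compares GFP+ and GFP- cells where neither has Foxp3 protein by label. The GFP+ cells came from D_S mice and the GFP- cells from DEREG mice, so mouse source and GFP state cannot be told apart. No gene of the 39 was called, against 0.574% of all genes, and 3 glycolysis genes and 1 TCA cycle gene reached an unadjusted p under 0.05, against 13.8%. The glycolysis median of 0.25 was near that of all genes, 0.22, and the TCA cycle median was -0.16, with 13 of 17 genes below 0, where 32% of all genes were, and 16 below the all-gene median. Eno2 had the largest glycolysis difference, 1.46 (SE 0.34, adjusted p = 0.12), and Pfkfb3 was at 1.00 (SE 0.31, adjusted p = 0.23). Slc16a1 was at -0.80 (SE 0.34, adjusted p = 0.34), the opposite sign, and Pgam1 at 0.35. Pdha1 led the TCA cycle genes at -0.75 (SE 0.28, adjusted p = 0.30), followed by Fh1 at -0.53, Idh3a at -0.46 and Suclg1 at -0.60.

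Foxp3-labelled and mock arrays were compared within each source of cells. In GFP- cells, Tconv Foxp3-labelled against Tconv mock gave no call among the 39 genes, where 0.0883% of all genes were called, and 2 glycolysis and 1 TCA cycle gene had an unadjusted p under 0.05, against 13.9%. Pfkfb3 had the smallest p of the glycolysis genes with 1.32 (SE 0.31, adjusted p = 0.17), with both Tconv Foxp3-labelled arrays above both Tconv mock arrays. With array weights Pfkfb3 was the 1 gene of the 39 called (adjusted p = 0.026), in a setting that called 4.66% of all genes. Slc16a1 was at 0.84 (SE 0.34, adjusted p = 0.33), Aldoc at -1.57 (SE 0.72, adjusted p = 0.37) and Pgam1 at 0.43. In the TCA cycle Fh1 was at 0.61 (SE 0.26, adjusted p = 0.35), then Sdhd at 0.48, Sdhb at 0.38 and Idh3b at 0.37. The list medians, 0.12 for glycolysis and 0.24 for the TCA cycle, lay below the all-gene 0.26, and at a common 75th percentile they were -0.20 and -0.07, so their sign depends on the scaling.

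In GFP+ cells, scurfy Foxp3-labelled against scurfy mock called none of the 39 genes and 0.0353% of all genes. At an unadjusted p under 0.05, 1 glycolysis gene and 0 TCA cycle genes passed, against 4.25% of all genes. The glycolysis gene was Aldoc at -1.77 (SE 0.72, adjusted p = 0.999), whose 2 scurfy mock arrays stood far apart, and Pfkp (-0.73), Slc2a3 (-0.73) and Pdk1 (-0.64) followed. TCA cycle genes with the smallest p were Idh2 (-0.65), Sdhc (0.36), Suclg2 (-0.50) and Cs (-0.28). These arrays include the pair that resembled each other across groups, and without that pair Aldoc was at -2.54 (adjusted p = 0.13). The test of the difference between the 2 vector effects called 0% of all genes. At an unadjusted p under 0.05 it gave 8.06% of all genes and, of the 39, Pfkfb3 alone at -1.07 (SE 0.44, adjusted p = 0.62). Pdk1 (-1.37), Slc2a3 (-1.34) and Pfkp (-0.84) came next in glycolysis, and Idh2 (-1.11), Sdhb (-0.56), Fh1 (-0.54) and Sdhd (-0.44) in the TCA cycle.

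Scurfy Foxp3-labelled cells were then set against the other cells labelled with Foxp3. Their source was D_S mice and that of the other cells DEREG mice. Treg also carried the empty vector, so source and vector both differ in that comparison. Against Treg no gene of the 39 was called, where 0.177% of all genes were, and 0 glycolysis and 1 TCA cycle gene passed an unadjusted p under 0.05, against 8.88%. That gene was Suclg2 at -0.94 (SE 0.37, adjusted p = 0.48). Sdhc, Idh3b and Pdhb followed at 0.55, 0.33 and 0.27, and in glycolysis Eno2, Hk2, Pdk1 and Pfkfb3 were at 0.59, 0.47, -0.49 and 0.31. The sign of Pdk1 turned without scurfy Foxp3-labelled array 2, to 0.056. The list medians of 0.06 for glycolysis and 0.07 for the TCA cycle were close to the 0.01 of all genes.

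Against Tconv Foxp3-labelled cells, which received the same vector, the TCA cycle median was -0.38, the glycolysis median -0.08 and that of all genes -0.07. The scurfy cells came from D_S mice and the Tconv cells from DEREG mice, so mouse source and GFP state cannot be told apart here either. No gene of the 39 passed the adjusted threshold, where 2.24% of all genes did, but 3 glycolysis and 4 TCA cycle genes had an unadjusted p under 0.05, against 17.1%. Eno2 was at 1.49 (SE 0.34, adjusted p = 0.064) and Slc16a1 at -1.44 (SE 0.34, adjusted p = 0.071). Slc2a3 was at -1.33 (SE 0.45, adjusted p = 0.18) and Pdk1 at -0.92. Fh1 was at -1.07 (SE 0.26, adjusted p = 0.078), Sdhb at -0.74 (SE 0.25, adjusted p = 0.18) and Pdha1 at -0.80 (SE 0.28, adjusted p = 0.19), with Idh3a at -0.67. Eno2 was called after quantile normalization (adjusted p = 0.019). Of 17 TCA cycle genes 12 were lower on both scurfy Foxp3-labelled arrays than on both Tconv Foxp3-labelled arrays, beside 25.5% of all genes, and so were 5 of 22 glycolysis genes.

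Over all 5 groups the moderated F test of limma called 1.91% of genes and none of the 39. An unadjusted p under 0.05 was reached by 3 glycolysis and 3 TCA cycle genes, against 17.8% of all genes: Eno2 (adjusted p = 0.081), Slc16a1 (adjusted p = 0.12), Pfkfb3 (adjusted p = 0.17), Fh1 (adjusted p = 0.15), Sdhb (adjusted p = 0.25) and Pdha1 (adjusted p = 0.26). Eno2 was called after quantile normalization (adjusted p = 0.035) and at a common 75th percentile (adjusted p = 0.033). The range over the 10 arrays had a median of 0.98 log2 units for glycolysis and 0.93 for TCA cycle genes against 1.30 for all genes, and 10 of 22 and 7 of 17 spanned more than 1 unit, against 72.7% of all genes. The median range of both sets was therefore below that of all genes, though Aldoc, Ldhb and Slc16a1 spanned 3.42, 2.41 and 2.01 units. Both sets also lay above the array's median gene in intensity, and genes of like intensity were not compared.

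**Figure D4:**
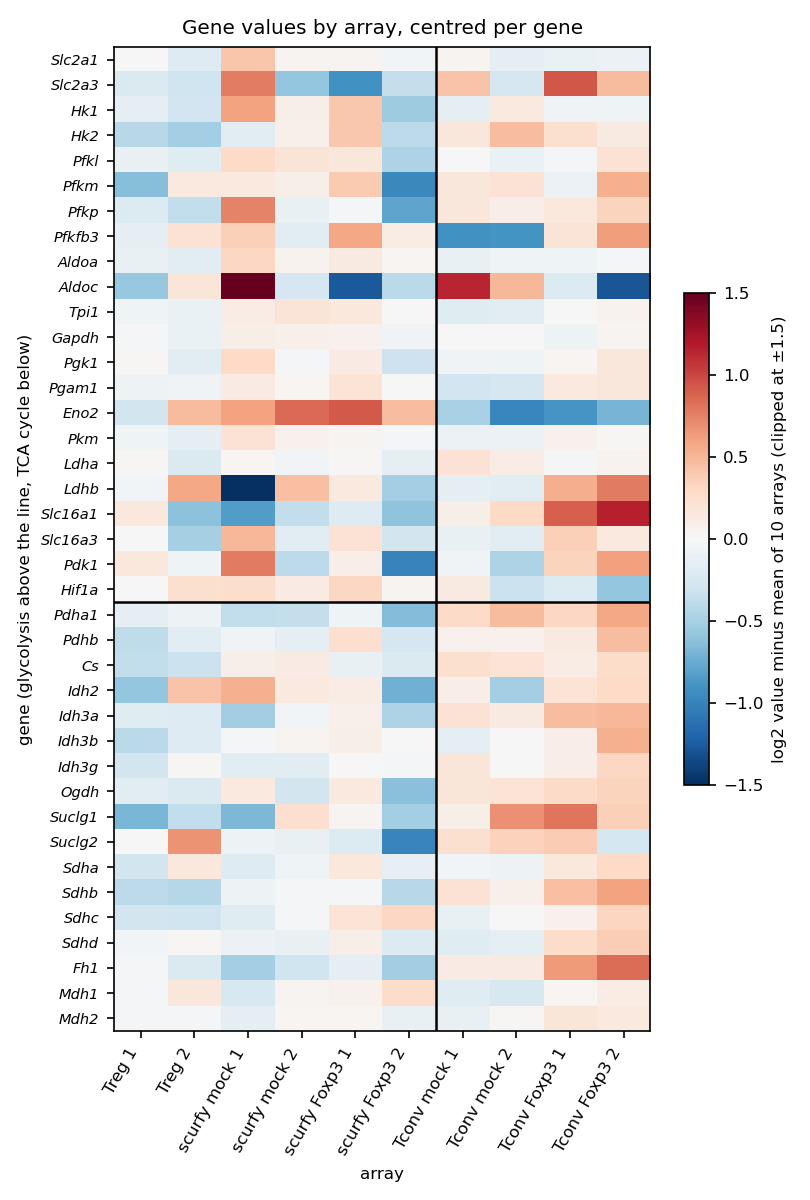
Log2(intensity + 16) of the 39 genes on the 10 arrays, each gene centred on its own mean and colours limited to 1.5 log2 units either way. The TCA cycle genes are lower on GFP+ than on GFP- arrays in most rows, whereas rows of glycolysis genes differ from each other and Aldoc, Ldhb and Slc2a3 differ between arrays of one group.

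Neighbouring genes of the pathways were read the same way in GFP+ against GFP-. Of all genes in this comparison, 4.65% were called, 21.7% had an unadjusted p under 0.05, 42.3% lay below 0 and the median was 0.08. Of 18 further genes of glycolysis and glucose metabolism that passed the filter none was called, with a median of 0.02 and 1 at an unadjusted p under 0.05. Of 19 further genes of the TCA cycle and pyruvate entry, 14 were lower, with a median of -0.20. At an unadjusted p under 0.05 there were 3, and 1 was called. That was Me1, the cytosolic malic enzyme, which rose by 1.92 (SE 0.35, adjusted p = 0.022). It read 10.1 and 20.8 in Treg, 94.1 and 169 in scurfy mock, 152 and 32.2 in scurfy Foxp3-labelled, 0.704 and 10.2 in Tconv mock and 2.32 and 1.84 in Tconv Foxp3-labelled, so its GFP- and Treg values are dim and Treg array 1 lies below Tconv mock array 2. Of 6 pentose phosphate genes none was called, and 5 were lower, with a median of -0.20 and 1 at an unadjusted p under 0.05. Among 19 HIF-1 and Myc genes outside glycolysis 2 were called, 6 had an unadjusted p under 0.05 and the median was 0.33. Of the called genes, Myc itself fell and Ndrg1, a hypoxia-induced gene, rose. Myc, the transcription factor that induces many metabolic genes, was measured at 1070.0 and 692 in Treg, 191 and 393 in scurfy mock, 406 and 532 in scurfy Foxp3-labelled, 901 and 919 in Tconv mock and 1423 and 1520.0 in Tconv Foxp3-labelled, a difference of -1.24 (SE 0.24, adjusted p = 0.024). Scurfy arrays were the lowest for Myc and Treg array 1 lay above both Tconv mock arrays, so GFP+ and GFP- overlap. Ndrg1 was at 1861 and 2557 in Treg, 3144 and 2281 in scurfy mock, 2498 and 1386 in scurfy Foxp3-labelled, 1784 and 1256 in Tconv mock and 898 and 517 in Tconv Foxp3-labelled, a difference of 1.12 (SE 0.26, adjusted p = 0.045), with the Tconv Foxp3-labelled arrays lowest and an overlap between GFP+ and Tconv mock arrays. None of these genes was called in the other comparisons of the 5 groups.

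Several of the 39 genes had more than 1 usable probe set. Among 28 such genes, all probe sets had the same sign between GFP+ and GFP- in 21, and among 14 TCA cycle genes all probe sets lay below 0 in 11. Eno2 and Fh1 rest on 1 probe set each. RNA quality was read from the ratio of the 3' to the 5' Gapdh control probe set, which was 1.75 to 2.24 on GFP+ and 1.83 to 1.89 on GFP- arrays, and its part in the differences was not tested. The arrays of scurfy mock and scurfy Foxp3-labelled differed from their partners by more than 1 log2 unit in 14% and 15.8% of genes, against 10.9% in Treg, 6.1% in Tconv mock and 4.28% in Tconv Foxp3-labelled, and 4 glycolysis genes did so in scurfy mock. The spread within a group was therefore unequal, while the fit assumes a single one. Without the pair of scurfy arrays that resembled each other, 6 of the 39 genes were called in GFP+ against GFP-: Eno2, Fh1, Idh3a, Pdha1, Slc16a1 and Suclg1. Of all genes, 7.51% were called in that setting, against 4.65% with all arrays.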

How the data were processed

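RNA from 10 samples was amplified with a NuGEN module and hybridised to Affymetrix Mouse Genome 430 2.0 arrays. The authors deposited linear intensity values, 1 for each probe set on each array, made with Affymetrix Expression Console per the submitters' processing notes. For its version, summary method and scaling, the sources used here give nothing. Groups came from the sample titles and descriptions.

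Of 45101 probe sets, 34958 carried a single symbol. Each gene was read from its probe set with the highest mean, leaving out 64 control probe sets except for Gapdh, which had no other single-symbol probe set. Values were taken as log2(intensity + 16) without further normalization, and 11319 genes were kept that exceeded the median of the array on 2 or more arrays. limma 3.58.1 in R 4.3.3 (lmFit, eBayes) fitted the means of the 5 groups over all 10 arrays, with 5 residual and 4.09 prior degrees of freedom and a prior SD of 0.342. p-values were two-sided and adjusted by Benjamini-Hochberg over all kept genes within each of 9 comparisons. GFP+ against GFP- compares the mean of the 3 GFP+ with that of the 2 GFP- group means.

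Differences are given for called genes and for the 4 glycolysis and 4 TCA cycle genes with the smallest p in each comparison. Values on all arrays are given for the called genes and for those with the smallest F test p, up to 12. Genes of neighbouring pathways are named where called. The members and lists were chosen with earlier results of these data known. The procedure was tested on simulated data. Of 50 genes shifted by 1 log2 unit, it recovered 1 in Treg against Tconv mock and 25 in GFP+ against GFP-. Of 50 shifted by 2 units it recovered 40 and 49. A missing call therefore does not show that a difference of 1 unit or less is absent. In Treg against Tconv mock it does not show this for 2 units either, where 40 of 50 were recovered. The simulation gave each gene the same spread in every group and covered these 2 comparisons only. Alternatives were other normalizations, pseudocounts, filters, probe set rules, fit options, array weights, a fit of only the compared groups, a block for the replicate number and omitted arrays. The number of arrays limits the precision throughout. Promoters are from RefSeq, GRCm38.p6.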

Additional observations from a re-analysis of the deposited data

How the results depend on the processing

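In GFP+ against GFP- the direction of the TCA cycle median held under all 21 alternatives (-0.45 to -0.20), with 15 to 17 of 17 genes below 0, whereas the glycolysis median ran from -0.20 to 0.04. The calls depended on the settings, and so did the share of all genes called, 4.65% on the deposited scale. Called TCA cycle genes numbered 3 after quantile normalization (6.45% of all genes), with a pseudocount of 64 (4.46%) and with trend and robust options in eBayes (5.9%). There were 4 at a common 75th percentile (7.25%) and without the 2 scurfy arrays that resembled each other (7.51%), 2 with array weights (6.49%) and with a filter at the 75th percentile (6.11%), and 0 with a pseudocount of 1 (2.81%). Called glycolysis genes numbered 1, Eno2, with a pseudocount of 1, without a filter (1.74% of all genes) and with the mean of probe sets (4.38%), where Slc16a1 was lost. Eno2 was called under each of these alternatives, and Fh1 under each except the pseudocount of 1. Leaving out 1 array gave 0 to 2 called genes in either list and 0.875% to 6.74% of all genes, with 0 in both lists without Tconv mock array 2 or either Tconv Foxp3-labelled array. The causes were not tested.

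A check for pairing by replicate number gave correlations of -0.17 to 0.19 over 10 pairs of groups, 2 of them over 0.1. These are not correlations of whole arrays, which were far higher, as r = 0.925 between array 1 of scurfy mock and array 1 of scurfy Foxp3-labelled. Pairing by number was thus not shown, and 2 arrays per group cannot exclude it. With the replicate number as a block, 1 glycolysis gene (Eno2), 0 TCA cycle genes and 3.43% of all genes were called in GFP+ against GFP-, and Slc16a1 (adjusted p = 0.056) and Fh1 (adjusted p = 0.084) were not.

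In scurfy Foxp3-labelled against Tconv Foxp3-labelled, where 2.24% of all genes and no glycolysis gene were called on the deposited scale, 1 glycolysis gene was called after quantile normalization (2.58% of all genes), at a common 75th percentile (3.14%) and with the mean of probe sets (2.23%). There were 2 with a pseudocount of 64 (2.17%), which also called 1 TCA cycle gene, and with trend and robust options (3.03%). The F test called 1 glycolysis gene after quantile normalization (2.27% of all genes), at a common 75th percentile (3.15%) and with trend and robust options (3.2%). Tconv Foxp3-labelled against Tconv mock called 1 with array weights (4.66%). Among the single genes followed through the settings, the direction of 1 reversed, that of Pdk1 in scurfy Foxp3-labelled against Treg, whose difference ran from -1.05 to 0.056 when 1 array was left out. List medians also changed sign in several comparisons: for example, the glycolysis median in GFP+ against GFP- kept its sign in 17 of 21 alternatives and the TCA cycle median in scurfy Foxp3-labelled against Treg in 18 of 22. The remaining counts of called genes stayed at 0. Only 2 arrays per group limit every comparison. Some probe sets are dim, such as that of Suclg2, at 57.8 to 217 where array medians ran from 18.8 to 36.5.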
